A study of Mus musculus with 2 samples.

Results

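The angiopoietin-Tie genes were described here in single cells of mouse long bone: the ligand genes Angpt1, Angpt2 and Angpt4, the receptor genes Tek (which encodes Tie2) and Tie1, the phosphatase gene Ptprb (VE-PTP) and Svep1, whose secreted product binds Tie1. The 7 genes were chosen by symbol for their place in this pathway. They are 7 of the 28365 genes with at least 1 unique molecular identifier (UMI, a count of captured RNA molecules) in the kept cells, and each was detected in both libraries.

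Tie2 is a receptor tyrosine kinase of the endothelium. Angpt1, made by cells around the vessel, activates it and is known for keeping vessels quiescent, whereas Angpt2, made by the endothelium and by mural cells, can block or weakly activate it and is known for vessel remodelling. Tie1 binds no angiopoietin with high affinity by itself and modulates Tie2 in a complex with it, Ptprb removes phosphate groups from Tie2, and in bone marrow Angpt1 from stromal and blood-forming cells is known to affect sinusoidal vessels.

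The Control library came from mice of genotype Dach1OE +/f, which carried an unrecombined Dach1 transgene in the Rosa26 locus and no Cre. The Dach1OE library came from Apj CreERT2 - Dach1OE +/f mice, in which tamoxifen activates a Cre made from the Apj locus (Aplnr, active in capillary endothelial cells, or ECs) and so switches the transgene on. Both groups were C57BL/6, were given tamoxifen, were of both sexes and were taken at postnatal day 30. Femur and tibia were digested after the epiphysis was removed, and blood lineages, CD45+ and CD117+ cells were depleted with magnetic beads. Each library was 1 pool of 2 mice per the study's methods, so there was 1 library per group, no replicate library, and no test of a difference. All intervals below are 95% intervals of the UMI counts and cover counting error only.

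After cells with 500 to 6000 genes and under 25% mitochondrial UMIs were kept, the Control library held 26466 cells with a median of 3793.5 UMIs, and the Dach1OE library held 29317 cells with a median of 4055 UMIs. Of the kept cell barcodes, 879 occurred in both libraries. Cells were put into 16 classes and ECs into 8 subtypes by marker genes that hold none of the 7 members, and a class name means cells like that type by those markers. The EC class held 8371 Control and 8734 Dach1OE cells, and its 4 check markers that the gate did not use (Kdr, Flt1, Cldn5 and Plvap) were all higher in it than in the other cells. Levels are in CPM, a gene's UMIs divided by all UMIs of the class on the usual scale of that unit. Dach1, the overexpressed gene, stood at 4.95 CPM in Control ECs and 205 CPM in Dach1OE ECs, 41.4-fold higher (35.1 to 49.3), and Aplnr, whose regulatory sequence drives the Cre, was at 585 and 587 CPM. By the gates, the makeup of the endothelium differed between the libraries: sinusoidal ECs (bmECs) were 48.1% of Control and 9.92% of Dach1OE ECs, arterial ECs (aECs) 4.85% and 13.6%, and cells with Scgb3a1, Igfbp5 and Clca3a1 (Scgb3a1-type) 3.63% and 33.9%. The sinusoidal gate used Stab2 and Gpr182, which the paper reports as lower in Dach1OE ECs. Clusters of ECs after integration gave a smaller drop, with 4636, 888 and 240 Control and 1358, 640 and 207 Dach1OE cells in those named sinusoidal. Check markers were higher in their own class or subtype than in the rest except Wfdc1 in the Scgb3a1-type cells of both libraries, Mest in Control metaphyseal ECs and Plaur in Control tip-like ECs. Since most Scgb3a1-type cells came from the Dach1OE library, this subtype may be a state of that library rather than a cell type. When all cells were clustered without integration, the ECs of the libraries lay largely apart, with 6103 Control and 1271 Dach1OE cells in one cluster and 51 and 5042 in another.

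On the mouse genome GRCm38 with GENCODE vM21, all members are annotated as protein-coding genes. The counts were made with another release, vM19, so the overlaps below may differ from those at the counting. Angpt1 spans chr15:42424723-42676977 on the minus strand, Angpt2 chr8:18690263-18741562 on the minus strand, Angpt4 chr2:151911210-151945337 on the plus strand, Tek chr4:94739289-94874976 on the plus strand, Tie1 chr4:118471191-118490061 on the minus strand, Svep1 chr4:58042442-58206859 on the minus strand and Ptprb chr10:116275523-116389535 on the plus strand. Angpt2 lies inside the gene Mcph1 on the opposite strand, Angpt1 and Svep1 each overlap a predicted gene on the opposite strand, and Ptprb overlaps 2 predicted genes on its own strand, Gm47625 and Gm26495. Whether the counting used strand is not given in the sources used here, and intronic reads were counted, so the values of Angpt1, Angpt2, Svep1 and Ptprb may hold reads of these neighbours.

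RefSeq promoter sequences (build GRCm38.p6) matched 4 of the 7 members, Angpt4, Svep1, Tek and Tie1. The 250 bases before the annotated start are given for Tek, the receptor gene with the largest difference between the libraries, at chr4:94739039-94739288 on the plus strand, and for Angpt4, the ligand gene found mainly in stromal cells, at chr2:151910957-151911206 on the plus strand. Both are written 5′ to 3′, with capitals for every GGAA or its reverse complement TTCC, the core bound by transcription factors of the ETS family, which includes regulators of endothelial genes. The cores cannot overlap each other.
Tek promoter: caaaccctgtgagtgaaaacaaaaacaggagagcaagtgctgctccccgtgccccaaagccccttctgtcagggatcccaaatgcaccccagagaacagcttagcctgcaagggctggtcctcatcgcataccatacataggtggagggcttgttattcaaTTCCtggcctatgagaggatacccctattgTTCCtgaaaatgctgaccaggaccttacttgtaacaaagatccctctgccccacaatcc
Angpt4 promoter: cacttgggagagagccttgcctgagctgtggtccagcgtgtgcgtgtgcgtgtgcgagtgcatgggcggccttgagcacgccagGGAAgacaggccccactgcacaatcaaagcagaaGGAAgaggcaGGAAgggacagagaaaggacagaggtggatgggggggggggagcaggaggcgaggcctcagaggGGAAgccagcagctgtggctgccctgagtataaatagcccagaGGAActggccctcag
The Tek window held 2 of these cores, both as TTCC, and the Angpt4 window held 5, all as GGAA. Over 32851 RefSeq promoter windows of this length, 93.4% held at least 1 core, and 76.8% held at least as many as the Tek window and 18.0% at least as many as the Angpt4 window, so neither count is unusual for a promoter. The windows of Tie1 and Svep1, not printed here, held 7 and 6 cores, and 3.82% and 8.69% of windows held at least as many.

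The receptors and their phosphatase were endothelial genes in these bones. Tek, the receptor kinase, stood at 289 CPM in Control ECs (8237 UMIs, 283 to 296) and 204 CPM in Dach1OE ECs (5886 UMIs, 199 to 209), and in the classes with more than 3 UMIs in both libraries outside the endothelium at no more than 12.1 CPM. Tie1 stood at 1085 and 1161 CPM in Control and Dach1OE ECs. Ptprb stood at 1050 and 1019 CPM. Of all UMIs in named classes, ECs held 92.5% and 91.7% of Tek, 93.2% and 93.4% of Tie1 and 93.5% and 93.1% of Ptprb in the Control and Dach1OE libraries. These shares are raised by the gate, which kept cells with many endothelial UMIs out of the other classes.

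Outside ECs, Tek, Tie1 and Ptprb were far below their EC levels. Erythroid cells, which should lack the receptors, served as the background. In erythroid cells, Tek was at 6.84 and 4.04 CPM, Tie1 at 19.7 and 19.3 CPM and Ptprb at 20.3 and 19.4 CPM in Control and Dach1OE. Some classes outside ECs stood above this, as with Ptprb in marrow stromal cells at 27.4 and 32.0 CPM. With every cell thinned to 1000 UMIs, the share of ECs with Tek was 25.4% in Control (24.5 to 26.4) and 18.4% in Dach1OE (17.6 to 19.3), against 0.934% and 0.520% of erythroid cells. The thinning left out 183 Control and 255 Dach1OE ECs of lower depth. Unthinned, the shares were 54.7% and 42.4% of ECs, at a median of 2790 and 2774 UMIs, and 4.17% and 2.83% of erythroid cells, at a median of 6877.5 and 7695.5 UMIs. The share of ECs with Tek was thus lower in Dach1OE at the same depth, and far above this background in both libraries. Tek was also lower in Dach1OE cells that hold little of it, with log2 ratios (Dach1OE over Control) of -0.76 (-1.27 to -0.26) in erythroid cells, -0.73 (-1.18 to -0.28) in osteoblasts, -0.60 (-0.88 to -0.33) in chondrocytes and -0.97 (-1.81 to -0.17) in basophils or mast cells. In other such classes the interval held 0, as in smooth muscle with 0.41 (-0.53 to 1.40), megakaryocytes with 0.38 (-0.56 to 1.34), metaphyseal stromal cells with -0.09 (-1.05 to 0.83) and fibroblasts with -0.16 (-0.94 to 0.60). With cells split by sex as described below, the Tek interval held 0 in osteoblasts and chondrocytes of both sexes. In erythroid cells and basophils or mast cells it left out 0 in female cells only.

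By CPM, Tie1 stood furthest above this background in megakaryocytes and pericytes. It was at 89.5 CPM (77.9 to 102) in Control and 67.3 CPM (56.9 to 79.0) in Dach1OE megakaryocytes, the platelet-forming cells, and at 53.1 and 53.0 CPM in pericytes, the mural cells of capillaries. Lower levels of Tie1 stood in marrow stromal cells, at 28.0 and 23.7 CPM, and in metaphyseal stromal cells, at 30.5 and 26.8 CPM. The same free RNA per cell gives a higher CPM in cells of lower depth. Megakaryocytes, at a median of 3107.5 and 3037 UMIs, and pericytes, at 2419 and 2446 UMIs, were shallower than erythroid cells. The part of free endothelial RNA in these levels was not tested. ECs had 1.03 Tie1 UMIs per Ptprb UMI in Control and 1.14 in Dach1OE. Erythroid cells had 0.972 and 0.993 Tie1 UMIs per Ptprb UMI, and megakaryocytes had 4.82 (3.47 to 6.83) and 3.02 (2.17 to 4.26) and pericytes 1.5 (1.06 to 2.13) and 1.87 (1.43 to 2.44). The ratio in megakaryocytes lay above that of every EC subtype in Control, the highest of which was 1.77 in tip-like ECs, whereas in Dach1OE its interval overlapped that of lymphatic ECs at 2.14 (1.51 to 3.07). The ratio in pericytes did not differ beyond its interval from that of the metaphyseal ECs (mpECs), at 1.65 and 1.84.

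**Figure D1:**
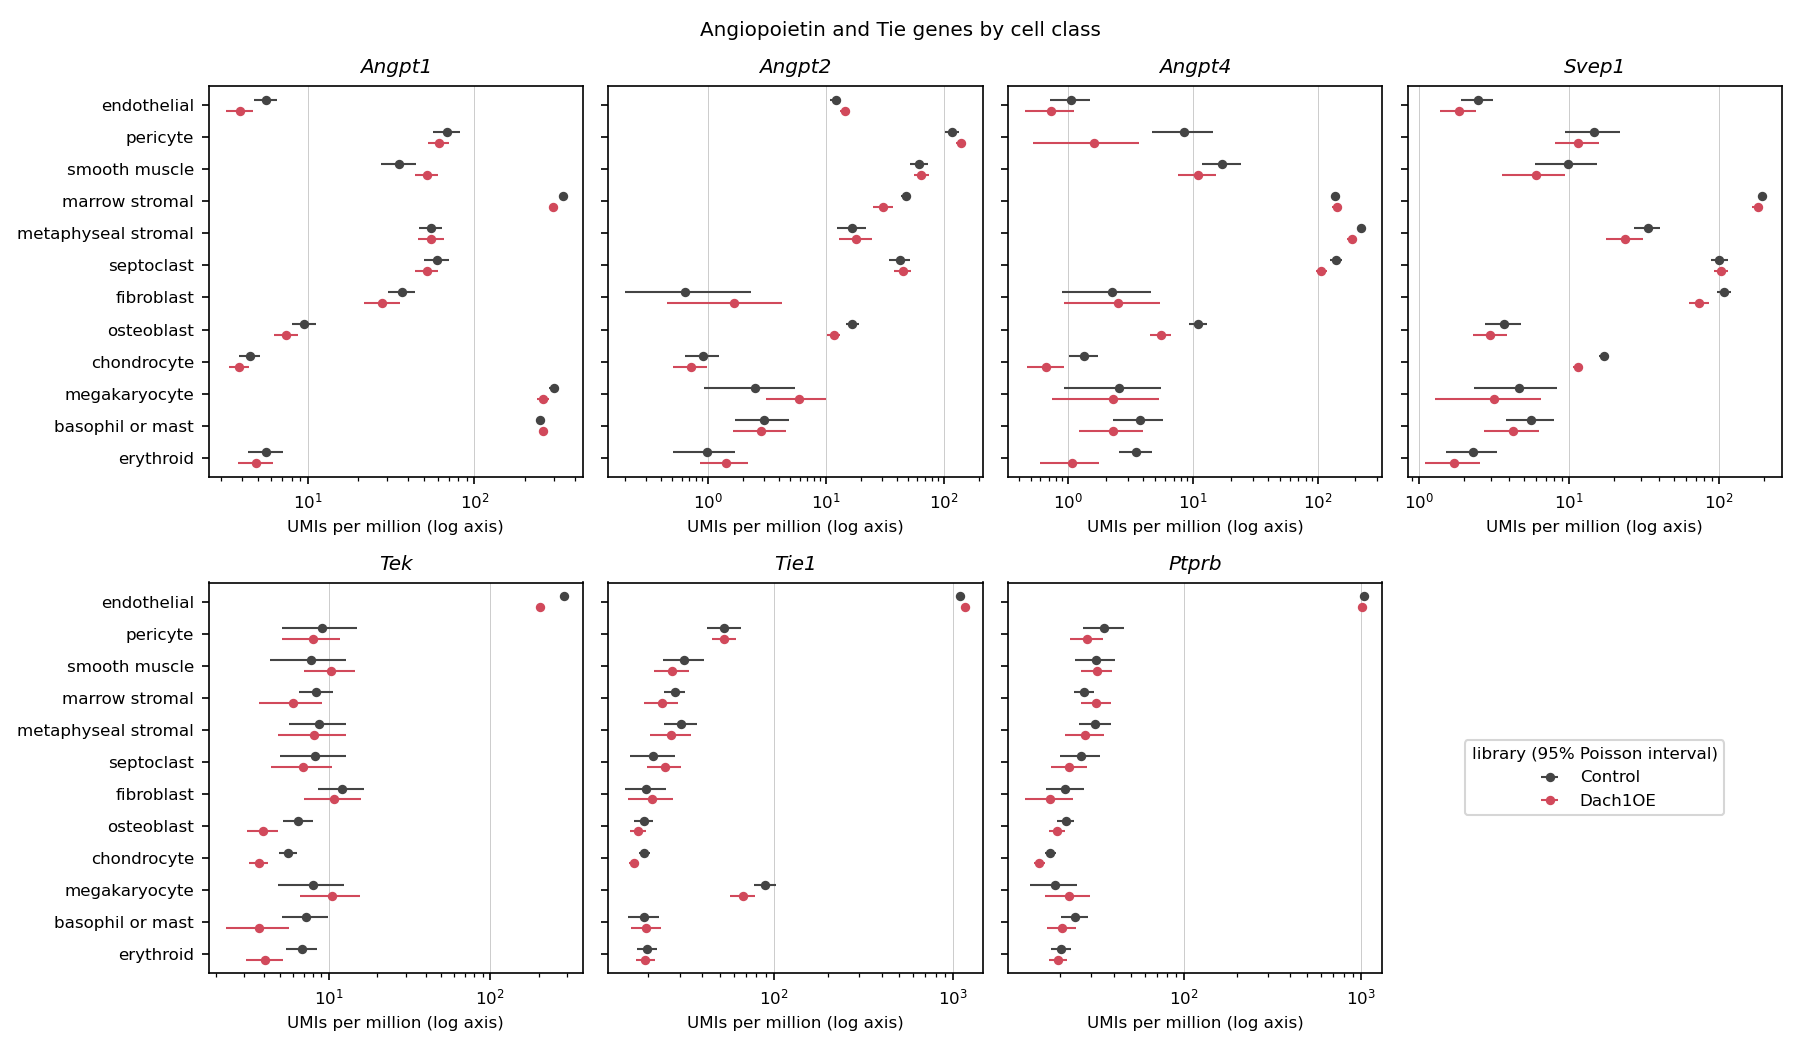
Level of each member in 12 cell classes, in CPM on a log axis, for the Control (dark) and Dach1OE (red) libraries, with 95% Poisson intervals of the counts as bars; values and bounds below 0.2 are drawn at 0.2. Tek, Tie1 and Ptprb are far higher in endothelial cells than elsewhere, while Angpt1, Angpt4 and Svep1 lead in stromal classes and Angpt2 in pericytes.

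The ligand genes were highest in cells outside the endothelium, in sets that overlapped in the marrow stromal cells. Angpt1, the Tie2 agonist, was highest in marrow stromal cells, the Adipoq- and Lepr-expressing cells of the marrow, at 342 CPM in Control (2847 UMIs, 330 to 355) and 297 CPM in Dach1OE (1041 UMIs, 280 to 316). Blood cells that the depletion had left followed, with megakaryocytes at 301 and 257 CPM, basophils or mast cells at 246 and 256 CPM and myeloid cells at 203 and 174 CPM. Pericytes had 68.4 and 61.0 CPM, osteoblasts 9.48 and 7.37 CPM, and ECs 5.55 and 3.88 CPM. The EC level did not differ from that of erythroid cells (5.62 and 4.89 CPM) beyond the counting intervals, so Angpt1 was not detectable in ECs above the background.

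Since marrow stromal cells were fewer in the Dach1OE library, with 1122 cells against 2722, the sources of Angpt1 UMIs shifted. Marrow stromal cells held 45.9% of the Angpt1 UMIs of named classes in Control and 23.1% in Dach1OE, and basophils or mast cells 21.3% and 32.2%. These shares depend on how many cells of each class entered each pool, after depletion of blood cells, and are no measure of the tissue.

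Angpt2, the context-dependent ligand, was highest in pericytes, at 118 CPM in Control (194 UMIs, 102 to 136) and 140 CPM in Dach1OE (439 UMIs, 127 to 154). Smooth muscle cells had 62.3 and 64.9 CPM, marrow stromal cells 47.9 and 30.8 CPM, and septoclasts, the matrix-degrading cells of the growth plate border, 42.7 and 45.3 CPM. ECs as a whole had 12.2 CPM (10.9 to 13.5) and 14.6 CPM (13.2 to 16.0), against 0.977 and 1.42 CPM in erythroid cells. Although Angpt2 is known as an endothelial gene, ECs thus ranked below the mural and marrow stromal cells, and chondrocytes, at 0.911 and 0.720 CPM, were at the background.

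Angpt4, the third ligand gene, and Svep1 were stromal genes. Angpt4 was highest in metaphyseal stromal cells, which lie by the growth plate, at 223 CPM in Control (665 UMIs, 206 to 240) and 188 CPM in Dach1OE (414 UMIs, 170 to 207). Septoclasts had 141 and 107 CPM and marrow stromal cells 138 and 142 CPM, and ECs, at 1.05 and 0.728 CPM, did not stand above erythroid cells (3.5 and 1.06 CPM). Svep1 was highest in marrow stromal cells, at 193 CPM (184 to 203) and 181 CPM (167 to 195). Fibroblasts, at 108.5 and 73.8 CPM, and septoclasts, at 101 and 103 CPM, came next. In Control, fibroblasts and septoclasts did not differ in Svep1 beyond their intervals, and in Dach1OE septoclasts stood above fibroblasts.

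Within the endothelium, Tek, Ptprb, Tie1 and Angpt2 differed in the order of their subtypes. Tek in Control was highest in the 304 Scgb3a1-type cells, of which 222 lay near the margin of their gate, at 372 CPM (334 to 413), followed by bmECs at 300.5 CPM (292 to 310), mpECs at 288 CPM (274 to 302) and remodelling ECs (rECs, the type R capillaries) at 286 CPM (244 to 333). The last 3 did not differ beyond their intervals. Proliferating ECs (pECs) had 242 CPM and lymphatic ECs 235 CPM, aECs 157 CPM (136 to 180), and tip-like ECs, the migrating cells at the front of sprouts, the least, with 85.7 CPM (60.7 to 118). Tek was thus 0.521 times as high in aECs as in bmECs in Control (0.450 to 0.600) and 0.575 times in Dach1OE (0.519 to 0.637), so low arterial Tek was found in both libraries.

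Ptprb had another order. It was highest in rECs at 2094 CPM (1978 to 2216) and aECs at 2050 CPM (1972 to 2130) in Control, which did not differ beyond their intervals. bmECs had 995 CPM (978 to 1011), mpECs 864 CPM and tip-like ECs 722 CPM. The aEC level was 2.06 times that of bmECs in Control (1.98 to 2.15) and 1.76 times in Dach1OE (1.68 to 1.85). Subtypes taken from clusters instead of marker gates gave a smaller arterial excess, with a log2 ratio of aECs over bmECs of 0.30 in Control against 1.04 with the gates.

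Tie1 varied less. It was highest in mpECs at 1428 CPM (1396 to 1460) and aECs at 1415 CPM (1351 to 1482) in Control, and lowest in bmECs at 900 CPM (885 to 916). With clusters in place of gates the log2 ratio of aECs over bmECs was 0.10, against 0.65. Angpt2 in Control was highest in rECs at 65.5 CPM (38 UMIs, 46.4 to 89.9) and tip-like ECs at 56.4 CPM (25 UMIs, 36.5 to 83.2), with lymphatic ECs at 28.5 CPM, mpECs at 14.2 CPM and aECs and bmECs at 8.56 and 8.28 CPM. rECs had 7.92 times the bmEC level in Control (5.34 to 11.5) and 7.16 times in Dach1OE (3.76 to 13.7). In Dach1OE rECs were highest too, at 56.4 CPM, followed by lymphatic ECs at 47.3 CPM on 5 UMIs (15.3 to 110) and tip-like ECs at 28.3 CPM, and the last 2 did not differ beyond their intervals.

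**Figure D2:**
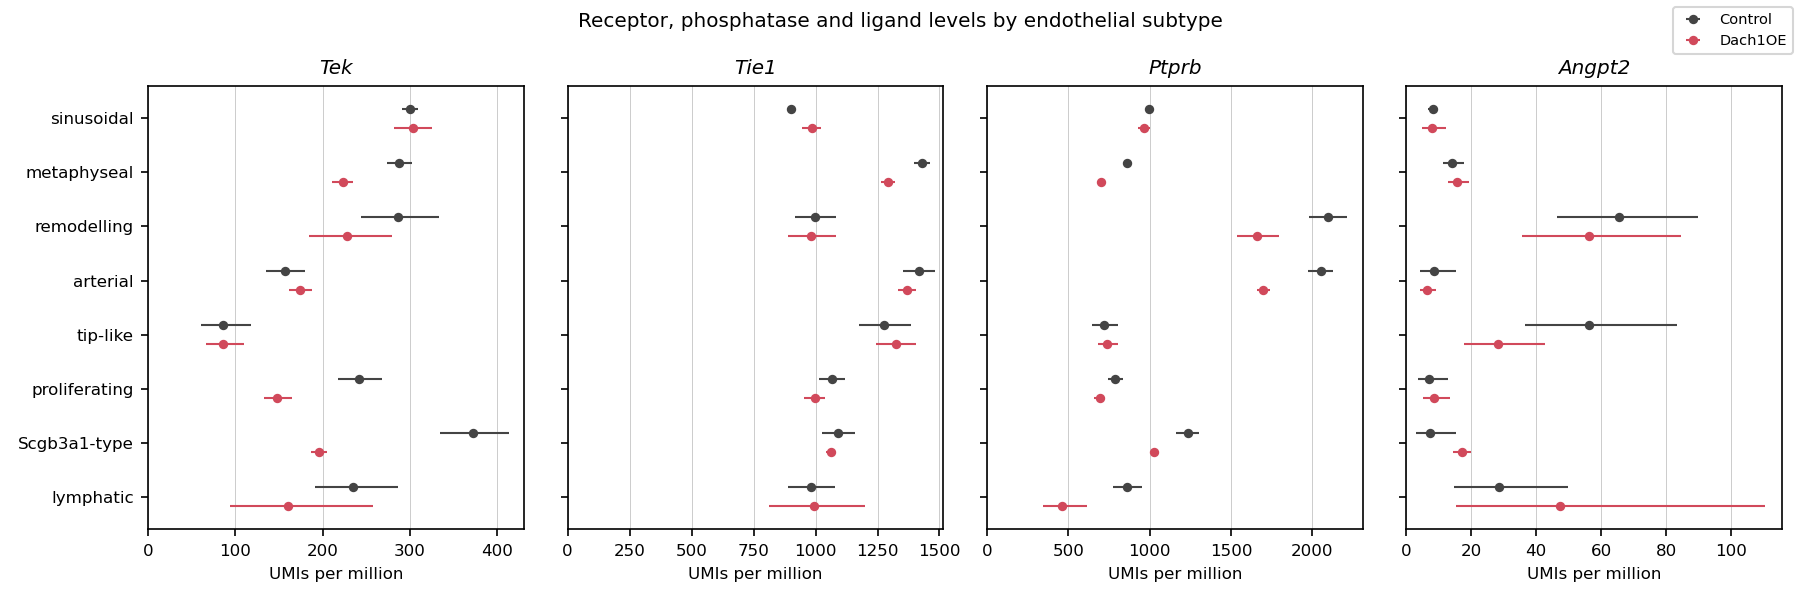
Levels of Tek, Tie1, Ptprb and Angpt2 in 8 endothelial subtypes, in CPM on linear axes that differ between panels, for Control (dark) and Dach1OE (red), with 95% Poisson intervals. Tek is lowest in tip-like cells of both libraries, next lowest in arterial cells in Control and in proliferating cells in Dach1OE, and Ptprb highest in arterial and remodelling cells, and the libraries stand furthest apart for Tek in the Scgb3a1-type cells.

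The comparison of Dach1OE with Control set a library in which Dach1 was switched on by Cre beside a library without Cre. With 1 library per group, it cannot assign a difference to Dach1. Over all ECs, Tek was 1.42-fold lower in Dach1OE, with a log2 ratio of -0.50 (-0.55 to -0.46). Ptprb had a log2 ratio of -0.04 (-0.07 to -0.02). Tie1 had 0.10 (0.07 to 0.12) and Angpt2 had 0.26 (0.05 to 0.47). Angpt1 had -0.52 (-0.88 to -0.16), at the background level given above. The intervals of these 5 left out 0, although that of Angpt2 held 0 without the Scgb3a1-type cells, with 0.11 (-0.13 to 0.35), and that of Ptprb held 0 in cells of female origin, with -0.03 (-0.07 to 0.01), and of male origin, with -0.01 (-0.05 to 0.03). That of Angpt1 also held 0 in cells of female origin, with -0.41 (-1.02 to 0.19), and of male origin, with -0.49 (-1.20 to 0.21). Of the 7 members, all of which reached 50 UMIs, 0 were past 1.5-fold in either direction. Over the 13483 genes with at least 50 UMIs in ECs, 7.62% were at least 1.5-fold higher and 5.99% at least 1.5-fold lower with an interval that left out no change, and the median log2 ratio was 0.04. The ratio of Tek was reached or undercut by 8.02% of these genes, and that of Ptprb by 36.3%.

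Tek differed by subtype. In bmECs it was at 300.5 CPM in Control and 303 CPM in Dach1OE, a log2 ratio of 0.01 (-0.10 to 0.12), in aECs at 157 and 174 CPM (0.16, -0.07 to 0.39), and in tip-like ECs at 85.7 and 86.0 CPM (0.01, -0.59 to 0.62). In mpECs it was lower in Dach1OE, at 223 against 288 CPM (-0.37, -0.48 to -0.26). In pECs it was lower still, at 148 against 242 CPM (-0.71, -0.93 to -0.49). The largest difference stood in the Scgb3a1-type cells, at 196 against 372 CPM (-0.93, -1.09 to -0.76), with 1884 and 350 UMIs. In Control most of these cells lay near the gate's margin, 222 of 304, against 593 of 2964 in Dach1OE. In rECs Tek was at 228 against 286 CPM (-0.33, -0.71 to 0.05), and in ECs that no subtype gate took it was at 219.8 against 325 CPM (-0.56, -0.70 to -0.43). Sinusoidal and arterial cells that passed the same gates in both libraries thus showed no detectable difference in Tek. The mpECs, pECs, Scgb3a1-type cells and unassigned ECs did show one. Cycling ECs were put in the pECs whatever subtype their other markers gave, and unassigned ECs were those that no gate took. The makeup of pECs and unassigned ECs may thus differ between the libraries. The part of such a shift in their Tek ratios was not tested. The sinusoidal gate used Stab2 and Gpr182, which the paper reports as lower in Dach1OE ECs. It may thus pass over Dach1OE cells with less of these markers. The gate took 866 Dach1OE cells, against 1358, 640 and 207 in the clusters named sinusoidal. After thinning, 50 of its Dach1OE cells had a Dach1 UMI and 791 had none. The bmEC ratio thus cannot tell whether Tek differed in sinusoidal cells that the gate left out. Tek ratios for the clusters are not given here.

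Dach1 itself was at 64.2 CPM in Dach1OE bmECs, 157 CPM in mpECs, 194 CPM in pECs, 233 CPM in aECs, 247 CPM in tip-like ECs and 272 CPM in Scgb3a1-type cells. The part of the Dach1 level in the Tek differences was not tested.

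Ptprb was lower in Dach1OE within most subtypes although it hardly differed over all ECs. The log2 ratio was -0.27 (-0.34 to -0.21) in aECs, -0.33 (-0.47 to -0.20) in rECs, -0.30 (-0.36 to -0.24) in mpECs, -0.26 (-0.35 to -0.18) in Scgb3a1-type cells and -0.19 (-0.30 to -0.08) in pECs. In lymphatic ECs it was -0.89 (-1.35 to -0.46), on 49 UMIs in Dach1OE. In bmECs it was -0.05 (-0.11 to 0.02) and in tip-like ECs 0.04 (-0.16 to 0.24). Of the subtypes with the most Ptprb, aECs were a larger part of the Dach1OE endothelium (13.6% against 4.85%) while rECs were 1.42% against 2.22% by the gates and 506 cells in each library with subtypes from clusters. By imaging, the paper reports that both arteries and type R vessels expanded in Dach1OE femurs. It also finds Dach1-positive ECs enriched in its aEC and rEC clusters. The rECs here may not be the same cells as those of the paper, so these shares do not measure type R vessels. With each subtype weighted by its Control share of UMIs the log2 ratio over all ECs was -0.16, and with the Dach1OE shares -0.24. The same weighting brought Tek to -0.20 with Control shares and -0.52 with Dach1OE shares, and it ended the excess of Tie1, at 0.01 and -0.05. The weights were chosen after the values had been seen.

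Within subtypes, Tie1 differed little and in both directions. It was higher in Dach1OE bmECs, at 984 against 900 CPM (0.13, 0.07 to 0.19). It was lower in Dach1OE mpECs, at 1292 against 1428 CPM (-0.14, -0.19 to -0.10), and in pECs, at 996 against 1066 CPM (-0.10, -0.19 to -0.01). In aECs the ratio was -0.05 (-0.12 to 0.03) and in Scgb3a1-type cells -0.04 (-0.13 to 0.06), so the receptor pair parted in the Scgb3a1-type cells, where Tek was lower and Tie1 was not detectably so.

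The small EC excess of Angpt2 was not found throughout the subtypes. Angpt2 stood at 17.1 CPM in Dach1OE Scgb3a1-type cells (164 UMIs) against 7.45 CPM in Control (7 UMIs), a log2 ratio of 1.20 (0.12 to 2.53). The interval held 0 in cells of female (1.41, -0.52 to 4.50) and of male origin (0.16, -1.49 to 2.50). In tip-like ECs Angpt2 was lower in Dach1OE, at 28.3 CPM (22 UMIs) against 56.4 CPM (25 UMIs), with -1.0 (-1.89 to -0.11). That ratio rests on under 50 UMIs, and its interval held 0 in cells of female origin (-0.95, -2.76 to 0.76). In mpECs the ratio was 0.15 (-0.30 to 0.61), in rECs -0.22 (-1.03 to 0.57) and in bmECs -0.07 (-0.83 to 0.62). The direction over all ECs turned to -0.26 when each subtype had equal weight, so no direction for Angpt2 in ECs held across the ways of weighting.

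**Figure D3:**
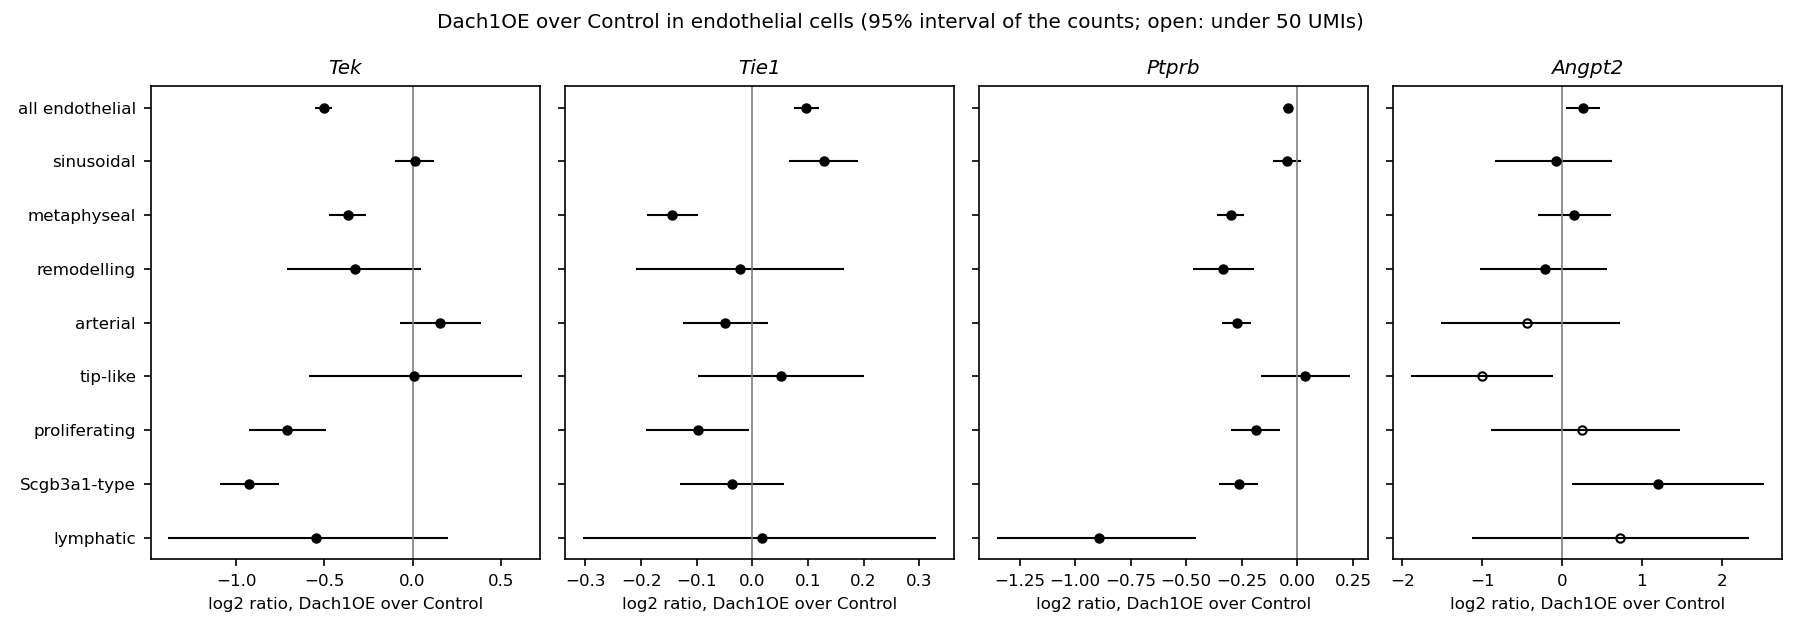
Log2 ratios of CPM, Dach1OE over Control, for Tek, Tie1, Ptprb and Angpt2 over all endothelial cells and in 8 subtypes, on axes that differ between panels; bars are 95% intervals of the counts and open symbols have under 50 UMIs. Tek lies near 0 in sinusoidal cells and at -0.93 in Scgb3a1-type cells, and Ptprb lies below 0 in most subtypes but near 0 over all endothelial cells.

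Some cells could be assigned by sex, with Xist and no Y-linked UMIs (of female origin) or the reverse (of male origin). Cells with both or neither were left out. Of the 8371 Control ECs, 2642 were of female and 2062 of male origin, and of the 8734 Dach1OE ECs, 2701 and 2050. A ratio over all cells of a class can thus lie outside those of both origins, as for Angpt4 in septoclasts below. With 2 mice of both sexes per pool, the cells of one sex may come from a single mouse, so sex and individual mouse cannot be told apart. In ECs, Tek was lower in Dach1OE in both, at 207 against 305 CPM in cells of female origin (-0.56, -0.64 to -0.47) and at 199 against 271 CPM in cells of male origin (-0.45, -0.54 to -0.35). In Scgb3a1-type cells the ratios were -1.16 (-1.43 to -0.88) and -0.65 (-0.99 to -0.29), in pECs -0.75 and -0.78, in mpECs -0.19 (-0.36 to -0.01) and -0.53 (-0.75 to -0.32), and in unassigned ECs -0.53 (-0.76 to -0.30) and -0.57 (-0.86 to -0.29). In rECs of female origin the ratio was -1.10 (-1.81 to -0.43), on 76 and 25 UMIs, and those of male origin were too few for a value. In bmECs they were -0.12 (-0.31 to 0.07) and 0.13 (-0.09 to 0.34). Tek was thus lower in Scgb3a1-type cells, pECs, mpECs and unassigned ECs of both origins, and not detectably lower in gated bmECs of either.

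For Tie1, the EC ratio was 0.03 (-0.01 to 0.07) in cells of female origin and 0.20 (0.16 to 0.24) in cells of male origin, and that in bmECs was -0.08 (-0.19 to 0.03) and 0.22 (0.10 to 0.33). In mpECs the Tie1 ratio was -0.05 (-0.13 to 0.02) and -0.18 (-0.27 to -0.09), and in pECs -0.17 (-0.31 to -0.02) and -0.07 (-0.23 to 0.10), each past 0 in cells of 1 origin only. The small excess of Tie1 over all ECs was thus seen in cells of male origin and not detected in cells of female origin. Ptprb was lower in aECs of both, with -0.15 (-0.27 to -0.04) and -0.40 (-0.54 to -0.26), and in mpECs of both, with -0.22 (-0.32 to -0.12) and -0.40 (-0.53 to -0.28). In Scgb3a1-type cells it was -0.34 (-0.49 to -0.18) and -0.17 (-0.35 to 0.01), and in pECs -0.17 (-0.35 to -0.00) and -0.16 (-0.36 to 0.05), so the interval held 0 in cells of male origin. In tip-like ECs of female origin Ptprb was higher in Dach1OE, with 0.43 (0.09 to 0.77).

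**Figure D4:**
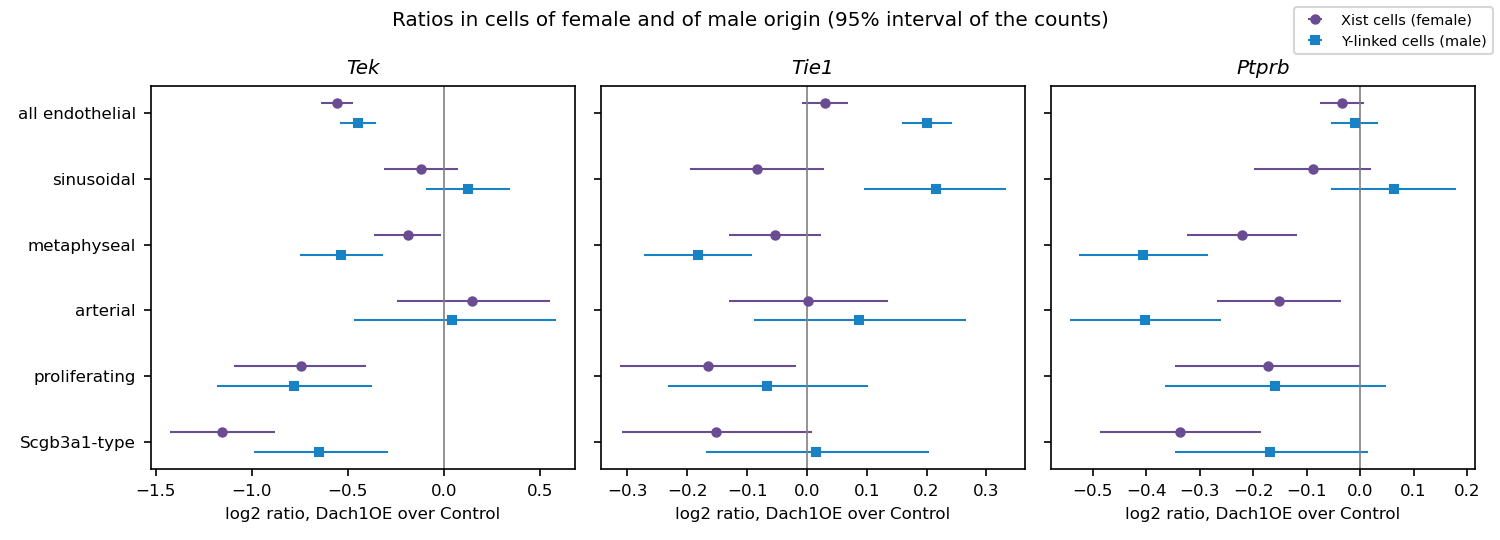
Log2 ratios, Dach1OE over Control, of Tek, Tie1 and Ptprb in endothelial cells of female origin (circles, Xist) and of male origin (squares, Y-linked UMIs), with 95% intervals of the counts. Tek is below 0 in metaphyseal, proliferating and Scgb3a1-type cells of both sexes, while Tie1 over all endothelial cells is at 0.03 in female and 0.20 in male cells.

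Within the Dach1OE library, ECs with and without a Dach1 UMI were compared after thinning to 1000 UMIs. The 1513 ECs with Dach1 had Tek at 182 CPM and the 6966 without at 219 CPM, a log2 ratio of -0.27 (-0.46 to -0.08). For Tie1 the ratio was 0.01 (-0.07 to 0.08) and for Ptprb 0.03 (-0.05 to 0.10). Within Scgb3a1-type cells Ptprb had -0.15 (-0.28 to -0.03), and its interval held 0 in bmECs, mpECs, aECs and pECs. Within Scgb3a1-type cells the Tek ratio was -0.19 (-0.49 to 0.09), in mpECs -0.21 (-0.68 to 0.22) and in aECs 0.14 (-0.35 to 0.61), none of which left out 0. In bmECs it was -1.43 (-2.89 to -0.29) on 6 Tek UMIs in 50 cells with Dach1. A cell without a Dach1 UMI at this depth may still express it, and the subtypes mix in the value over all ECs.

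Among the ligand-producing cells, differences between the libraries were small beside those between classes. Angpt1 in marrow stromal cells had a log2 ratio of -0.20 (-0.31 to -0.10), with -0.10 (-0.26 to 0.06) in cells of female and -0.27 (-0.51 to -0.04) in cells of male origin. In megakaryocytes it was -0.23 (-0.39 to -0.07), and in basophils or mast cells 0.06 (-0.05 to 0.17). In smooth muscle it was 0.55 (0.13 to 0.98), at 51.6 against 35.3 CPM. The class with the most Angpt1 thus had a slightly lower level in Dach1OE. A ratio as low was found for 19.9% of the 11088 genes tested in marrow stromal cells.

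Angpt2 was the member with the largest difference in marrow stromal cells. It stood at 30.8 CPM in Dach1OE (108 UMIs) against 47.9 CPM in Control (399 UMIs), 1.55-fold lower, with a log2 ratio of -0.64 (-0.96 to -0.33). The ratio was -0.55 (-1.12 to -0.01) in cells of female origin and -0.57 (-1.26 to 0.08) in cells of male origin. It was the 1 of 7 members past 1.5-fold in this class, where 1.92% of genes were lower and 1.98% higher by this rule, and the median over all genes was -0.01. The ratio fell short of 1.5-fold in cells of either origin, with 1000 to 6000 genes per cell (-0.57), with classes from clusters (-0.51) and with equal weight of the stromal classes (-0.40). In osteoblasts Angpt2 was also lower, at 11.7 against 16.9 CPM (-0.53, -0.79 to -0.27). There the ratio was -0.50 (-0.93 to -0.07) in cells of female and -0.51 (-1.12 to 0.12) in cells of male origin. In the mural cells that have the most Angpt2 no difference was detected over all cells, with 0.24 (-0.00 to 0.49) in pericytes and 0.06 (-0.28 to 0.40) in smooth muscle. In smooth muscle the ratio was 0.80 (0.02 to 1.64) in cells of female and -0.51 (-1.33 to 0.30) in cells of male origin. In pericytes it was -0.02 (-0.45 to 0.43) and 0.44 (-0.07 to 0.97).

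Angpt4 was lower in Dach1OE metaphyseal stromal cells, with -0.25 (-0.43 to -0.07), and septoclasts, with -0.40 (-0.62 to -0.18). In metaphyseal stromal cells the ratio was -0.40 (-0.68 to -0.12) in cells of female and -0.10 (-0.53 to 0.32) in cells of male origin. In septoclasts it was 0.13 (-0.25 to 0.51) and -0.27 (-0.77 to 0.24), so neither origin by itself showed a difference in septoclasts beyond counting. In marrow stromal cells it did not differ beyond counting, with 0.04 (-0.12 to 0.19). Larger ratios stood in cells with little of it: -1.0 (-1.36 to -0.64) in osteoblasts at 11 and 5.50 CPM, and -1.72 (-2.67 to -0.84) in erythroid cells at 3.5 and 1.06 CPM. Erythroid cells should lack the gene, and the Dach1OE library, with the lower level there, also had fewer marrow stromal cells. The part of free RNA in the ratios of these low classes was not tested.

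Svep1 in marrow stromal cells had a ratio of -0.09 (-0.23 to 0.04). In fibroblasts it was lower, at 73.8 against 108.5 CPM (-0.56, -0.83 to -0.29), with -1.91 (-2.77 to -1.14) in cells of male origin, on 17 UMIs in 113 Dach1OE cells, and -0.18 (-0.56 to 0.21) in cells of female origin. In chondrocytes the ratio was -0.58 (-0.74 to -0.42), at 11.5 against 17.1 CPM, and it was alike in cells of female (-0.56) and male origin (-0.51).

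The 21 other genes of the pathway list carry the signal from Tie2, dock to it, cleave Tie1, bind angiopoietins as integrins or lie downstream. The transcription factors Foxo1 and Klf2 are of the last kind. In ECs 20 of them reached 50 UMIs, of which 1 was past 1.5-fold higher and 0 lower, against 7.62% and 5.99% of all genes, and their median log2 ratio was -0.02 against 0.04 over all genes. The exception was Nos3, the endothelial nitric oxide synthase, at 140 CPM in Dach1OE against 79.9 CPM in Control (0.81, 0.74 to 0.89). Klf2, a transcription factor induced by flow, was at 280 against 244 CPM (0.20, 0.15 to 0.25). Akt1, the kinase through which Tie2 acts on survival, was at 276 against 277 CPM (-0.01, -0.05 to 0.04). The integrin genes Itgb1 and Itga5 had ratios of 0.07 (0.05 to 0.10) and 0.01 (-0.05 to 0.07), and the adaptor Grb2 had 0.13 (0.07 to 0.20). Lower values that did not reach 1.5-fold stood for the kinase subunits Pik3r1, at 81.9 against 110.0 CPM (-0.43, -0.50 to -0.35), and Pik3ca (-0.30, -0.40 to -0.21), for the integrin Itgav (-0.32, -0.44 to -0.20) and for the adaptor Shc1 (-0.26, -0.33 to -0.19), which were named after their values were seen. In marrow stromal cells 0 of 18 genes tested were past 1.5-fold in either direction, against 1.98% and 1.92% of all genes.

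Of the 6 angiopoietin-like relatives, which do not bind Tie2, 2 reached 50 UMIs in ECs. Angptl4, an inhibitor of lipoprotein lipase, was at 65.3 CPM in Dach1OE ECs against 132 CPM in Control (-1.02, -1.10 to -0.94), and Angptl2 was at 6.45 against 4.36 CPM (0.57, 0.23 to 0.91) and not past 1.5-fold. In marrow stromal cells 4 relatives were tested. Angptl4 was at 84.0 against 126 CPM (-0.58, -0.77 to -0.39) and Angptl2 at 83.4 against 67.5 CPM (0.30, 0.10 to 0.51), neither called past 1.5-fold. Angptl1 was lower, at 15.4 against 26.9 CPM (-0.80, -1.26 to -0.37), and Angptl7 was higher, at 6.85 against 3.48 CPM (0.98, 0.13 to 1.81), on 24 and 29 UMIs. Angptl1, Angptl2 and Angptl7 were named after their values were seen.

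Across 21 points, the classes and EC subtypes with at least 50 cells in each library, the genes with the profile most like each member were ranked by Pearson's r of log2(CPM + 1). The points share libraries and free RNA, and r is a description. They also mix EC subtypes with classes that the gate kept free of cells with many endothelial UMIs. Genes far higher in ECs thus have a high r with each other, even where their orders among EC subtypes differ, as above. Tek was nearest to Kank3 (r = 0.989), Plvap (0.986) and Myzap (0.984), Tie1 to Flt1 (0.987), Kdr (0.986) and Rasgrp3 (0.983), and Ptprb to Zfp366 (0.991), Gbp9 (0.990) and Mmrn2 (0.990). Angpt1 was nearest to Mdga1 (0.896), Runx1 (0.881) and Plekha2 (0.874), Angpt2 to 9530026P05Rik (0.828), Plekhg2 (0.817) and Mylk (0.801), and Svep1 to Plekhf1 (0.937), Plxdc2 (0.934) and Fbln1 (0.910). The receptor genes and Ptprb were alike among themselves, with r between 0.972 and 0.979, while r was 0.03 for Angpt1 with Angpt2, 0.30 for Angpt2 with Angpt4, 0.52 for Angpt1 with Angpt4 and 0.74 for Angpt4 with Svep1.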

How the data were processed

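Single cells of femur and tibia were measured by BD Rhapsody whole-transcriptome sequencing in 1 Control and 1 Dach1OE library. The deposited values are UMI counts per cell and gene, which the authors made with BD's WTA pipeline (1.11 per the file headers) on GRCm38 with GENCODE vM19, intronic reads included. The counts after the pipeline's error correction were used.

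Cells with 500 to 6000 genes and under 25% mitochondrial UMIs were kept. ECs needed at least 25 UMIs of 7 endothelial markers per 10000 and at least 3 markers. Other classes needed under 15, which lowers receptor levels outside ECs, at least 2 of their own markers and a score margin of 0.1. Kcnj8 and Abcc9 (pericyte) and Ctsb and Dpp4 (septoclast) were dropped from the gates after the data were seen, because sinusoidal ECs had them. Scrublet (scanpy 1.11.5) marked 6.53% of Control and 6.60% of Dach1OE cells as doublets, which stayed in.

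UMIs were summed per class and library and divided by the class total. Levels have exact Poisson, shares exact Clopper-Pearson and ratios exact conditional binomial 95% intervals (Python 3.11.15, scipy 1.17.1). With 1 library per group no test was run. For counts of genes past 1.5-fold, genes needed 50 UMIs over both libraries. The procedure was tested on simulated data. Cells were also clustered (Seurat 5.3.0, R 4.3.3, resolution 0.5, and 0.4 for ECs), and TMM factors came from edgeR 4.0.16.

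The members and lists were chosen with earlier results of these data known. All 7 members are named, along with the genes of the pathway and relatives lists past 1.5-fold in ECs, at most 5 more of the highest level, and the 3 genes most like each of 6 members. The alternatives were raw UMIs, other limits on mitochondrial UMIs and genes, TMM, clusters, a wider score margin, doublets left out, thinned cells, cells of either sex and equal subtype weights, and, chosen after seeing the data, subtype weights from either library and ECs without Scgb3a1-type cells.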

Additional observations from a re-analysis of the deposited data

Results flagged for a closer look

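Within a member, some pairs of classes or subtypes had log2 ratios (Dach1OE over Control) of opposite sign, each with a counting interval that left out 0. With 1 library per group, these differences were not tested. Angpt1 had 0.55 in smooth muscle cells, against -0.20 in marrow stromal cells and -0.23 in megakaryocytes. Angpt2 had 0.26 in ECs, against -0.64 in marrow stromal cells and -0.53 in osteoblasts. Tie1 had 0.13 in bmECs, against -0.14 in mpECs and -0.10 in pECs. The Angpt1 ratio in smooth muscle was 0.80 in cells of female and 0.07 in cells of male origin, both with intervals that held 0. The Angpt2 ratio in ECs was 0.15 in cells of female and 0.11 in cells of male origin, both with intervals that held 0. In marrow stromal cells and osteoblasts the Angpt2 interval held 0 in cells of male origin. The Tie1 ratio in bmECs was -0.08 in cells of female and 0.22 in cells of male origin, that in mpECs -0.05 and -0.18, and that in pECs -0.17 and -0.07, so each was past 0 in cells of 1 origin only.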

How the results depend on the processing

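Each value rests on 1 library of pooled mice, so the intervals cover counting error and leave out the variation between mice, digests and runs. Over all ECs, the log2 ratio of Tek (-0.50) stayed below 0 under 14 alternatives, with every interval that could be computed below 0. That of Ptprb (-0.04) stayed below 0 too, but its interval held 0 with classes from clusters and in cells of female or male origin. Tek moved to -0.56 with cells of female origin, -0.45 with cells of male origin, -0.35 with equal weight of the subtypes and -0.20 with Control shares. Tie1 (0.10) moved to 0.031 with cells of female origin, 0.20 with cells of male origin, 0.043 after thinning, 0.16 without Scgb3a1-type cells and 0.012 with Control shares, and turned to -0.030 with equal weight and -0.051 with Dach1OE shares. Angpt2 (0.26) turned to -0.26 with equal weight and moved to 0.037 with Control shares, and its interval held 0 without Scgb3a1-type cells (0.11, -0.13 to 0.35), in cells of female (0.15, -0.23 to 0.52) and male origin (0.11, -0.29 to 0.51) and after thinning (0.28, -0.08 to 0.65). Ptprb moved to -0.010 with cells of male origin, -0.087 after thinning, -0.23 with equal weight, -0.16 with Control shares and -0.24 with Dach1OE shares. In marrow stromal cells, Angpt1 (-0.20) moved to -0.33 with classes from clusters and Angpt2 (-0.64) to -1.05 after thinning, and both stayed below 0 under all 11 alternatives, but Angpt2 fell short of 1.5-fold under 5 of them, with values from -0.57 to -0.40. For aECs over bmECs in Control, Tek (-0.94) moved to -0.66 after thinning, and with subtypes from clusters Tie1 (0.65) moved to 0.10 and Ptprb (1.04) to 0.30. For the Angpt2 value in marrow stromal cells, all alternatives were chosen after seeing the data, as were the Control and Dach1OE shares and the removal of Scgb3a1-type cells. The cause of these moves was not tested. No paired analysis was possible because each group had 1 library and thus no replicates to pair, and cells of either sex were set side by side instead.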

Other observations

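Dach1 was also found in cells outside the endothelium in both libraries. It stood at 87.7 CPM (68.1 to 111) in Control and 82.4 CPM (66.1 to 101) in Dach1OE myeloid cells, and at 35.7 and 32.6 CPM in basophils or mast cells, which did not differ beyond the counting intervals. At lower levels it was higher in Dach1OE in 5 classes outside the endothelium, with log2 ratios of 0.83 (0.50 to 1.17) in chondrocytes, 0.64 (0.15 to 1.13) in osteoblasts, 0.82 (0.12 to 1.52) in marrow stromal cells, 1.01 (0.11 to 2.01) in pericytes and 1.94 (0.56 to 3.67) in smooth muscle. Pericytes were the highest of these, at 16.0 against 7.93 CPM, and erythroid cells stood at 8.51 against 6.35 CPM (0.42, -0.00 to 0.85). The part of free endothelial RNA in these ratios was not tested. Among Control ECs, Dach1 was highest in rECs, at 44.8 CPM on 26 UMIs (29.3 to 65.7), against 3.09 CPM in bmECs. In Dach1OE rECs it stood at 132 CPM (99.5 to 173).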
